A study of Mus musculus with 8 samples.

Results

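Expression of 40 genes for glutamate receptors and for the scaffold and signalling proteins of the excitatory postsynapse was examined in mouse prefrontal cortex after AAV9 injection. The genes were chosen by symbol, as a list of known synaptic genes: 4 AMPA receptor subunits, 6 NMDA receptor subunits, 5 kainate receptor subunits, 6 metabotropic glutamate receptors, 1 delta receptor, 4 membrane-associated guanylate kinases (MAGUKs), 3 Shank, 3 Homer and 4 SAPAP scaffolds, 2 Neto auxiliary subunits and 2 CaMKII subunits. All 40 symbols were found among the 23393 in the count files, and all 40 were among the 17415 genes that passed a filter on low counts and were tested.

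Glutamate released from the presynaptic terminal opens AMPA receptors, which carry most fast excitatory current, and NMDA receptors, which admit calcium and gate synaptic plasticity. Kainate receptors modulate transmission on both sides of the synapse, and metabotropic receptors act through G proteins. Beneath the membrane, MAGUKs such as Dlg4 (PSD-95) hold the receptors, SAPAP proteins (Dlgap genes) link MAGUKs to Shanks, and Homers link Shanks to group I metabotropic receptors, while CaMKII is the abundant calcium-dependent kinase of this structure.

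The 8 libraries form 4 groups of 2, all bulk prefrontal cortex of C57BL6/J mice injected with AAV9, in animals aged 6 to 8 weeks according to the design text. In the Adnp set, titles name 2 Adnp libraries (shAdnp here) and 2 GFP control libraries. In the Pogz set, titles name 2 Pogz libraries (shPogz here) and another 2 GFP control libraries. The titles give the targeted gene, but the treatment label of all 4 hairpin libraries names a hairpin against ASH1L, so the target rests on the titles and the design text. The labels call the libraries biological duplicates, whereas the design text speaks of 3 knockdown mice and 2 control mice per comparison. The promoter that drove the hairpin, the share of cells infected and the time after injection are not stated in the labels or design text. All tissue is bulk lysate, so infected and uninfected cells were measured together, and fewer cells of a type cannot be told apart from less RNA per cell.

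Libraries held 27501722 to 69002749 counts assigned to named genes. Levels are given as CPM, counts relative to library size after scaling by the trimmed mean of M-values (TMM), and a difference is a log2 fold change of a hairpin group over its own GFP group with its standard error (SE). Neither targeted gene passed the test: the log2 fold change of Adnp in shAdnp tissue was -0.27 (SE 0.19, adjusted p = 0.768 by edgeR), that of Pogz in shPogz tissue was -0.32 (SE 0.16, adjusted p = 0.667 by edgeR), and Ash1l stood at -0.10 in shAdnp and 0.11 in shPogz tissue. Knockdown is therefore not shown by these counts, and the groups are named by their labels. Replicate 1 of shAdnp stood apart in Rn45s, a ribosomal precursor RNA, which took 7.62% of its counts against 0.134% to 0.740% in the other 7 libraries. The cortical markers Slc17a7 (741 to 1173 CPM) and Tbr1 (58.7 to 97.6 CPM) were present in all 8 libraries, and the choroid plexus marker Ttr lay at 1.46 CPM or less.

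Levels between genes were compared per kilobase of exon, in CPM per kb averaged over the 8 libraries. Exon length was the union over annotated isoforms, which need not match the gene model of the counting. It was 12013 bases for Dlg4, 24787 for Grin2b, 14967 for Grin2a and 4368 for Grin1. Levels, percentiles and family shares depend on these lengths. Camk2a was the highest of the 40, at 237 CPM per kb, followed by Camk2b at 148, Gria2 at 104 and Gria1 at 83.8 CPM per kb. The lowest were Grin2d at 0.999, Homer3 at 1.47 and Grm4 at 2.05 CPM per kb. Among 16264 tested genes with an exon length, Camk2a stood at the 99.4th percentile, Gria2 at the 97.7th and Grin2d at the 22.7th, and the core scaffold genes Dlg4, Homer1 and Shank3 at the 88.6th, the 86th and the 71.8th.

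Within the AMPA receptor family, Gria2, whose edited subunit makes the channel impermeable to calcium, took the largest share of CPM per kb in every library, 35.1% to 37.7%. Gria1 took 27.2% to 30.4%, Gria3 22.9% to 26.5% and Gria4, a subunit prominent in interneurons, 8.90% to 11.1%. Among NMDA receptor subunits the obligatory Grin1 took 45.5% to 51.4%, Grin2b 20.7% to 23.1% and Grin2a, the subunit that gains weight as cortex matures, 11.5% to 13.3%. Homer1 supplied 66.2% to 75.6% of the Homer family and Camk2a 57.4% to 67.3% of the CaMKII pair. Shank1 varied most among the Shank genes, from 28.8% to 41.6%, and both of these extremes came from GFP libraries of the Adnp set.

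**Figure D1:**
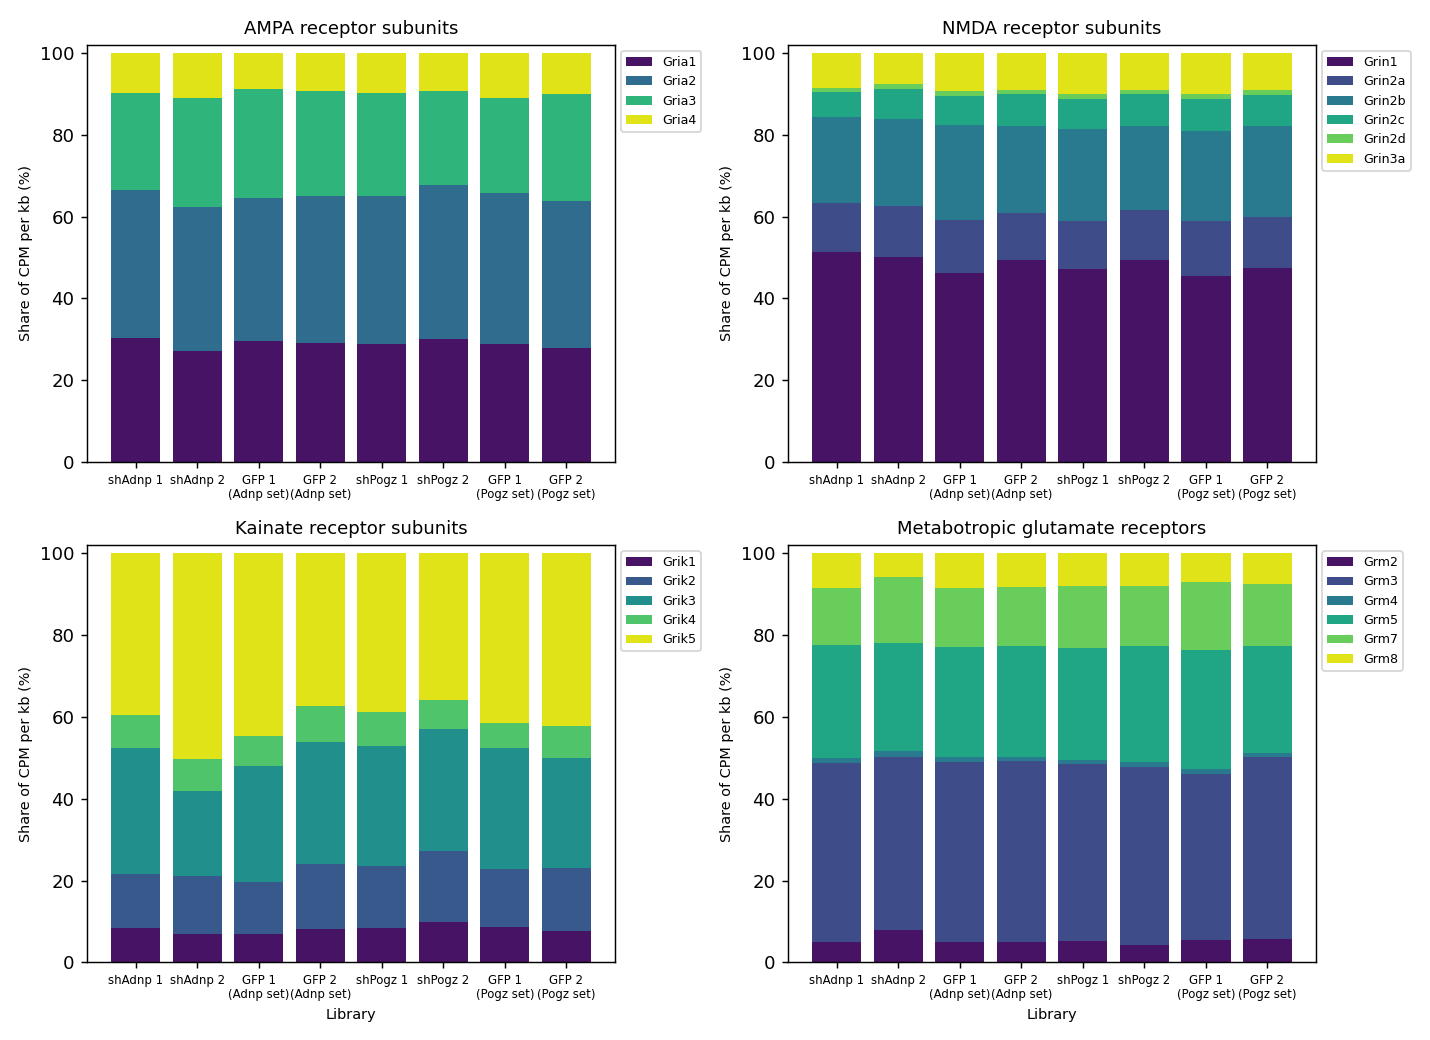
Share of each family's CPM per kb of exon (y axis, percent) taken by each subunit gene in the 8 libraries (x axis, hairpin libraries left of their own GFP libraries in each set), for the AMPA, NMDA, kainate and metabotropic families. Each stacked bar is 1 library. Gria2 held 35.1% to 37.7% of the AMPA family and Grin1 45.5% to 51.4% of the NMDA family in every library.

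These genes differed between libraries of the same label. Against the mean of their own GFP libraries, the median log2 deviation of the 40 was -0.21 in shAdnp replicate 1 (38 genes below), 0.01 in shAdnp replicate 2 (20 below), -0.04 in shPogz replicate 1 (27 below) and -0.43 in shPogz replicate 2 (39 below). The signed median log2 difference of replicate 1 over replicate 2 was 0.40 in shPogz and -0.17 in shAdnp. In the GFP libraries that signed median was 0.09 in the Adnp set and -0.04 in the Pogz set. Regardless of sign, the median difference was 0.40 in shPogz and 0.24 in shAdnp. It was 0.12 in the GFP libraries of the Adnp set and 0.10 in those of the Pogz set. The summed level of the 40 was 9121 and 10730 CPM in shAdnp, against 11350 and 10240 CPM in GFP libraries of the Adnp set. It was 9535 and 7107 CPM in shPogz, against 9378 and 10020 CPM in GFP libraries of the Pogz set. In the Adnp set the groups overlapped, and in the Pogz set shPogz replicate 1 lay between its 2 controls.

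**Figure D2:**
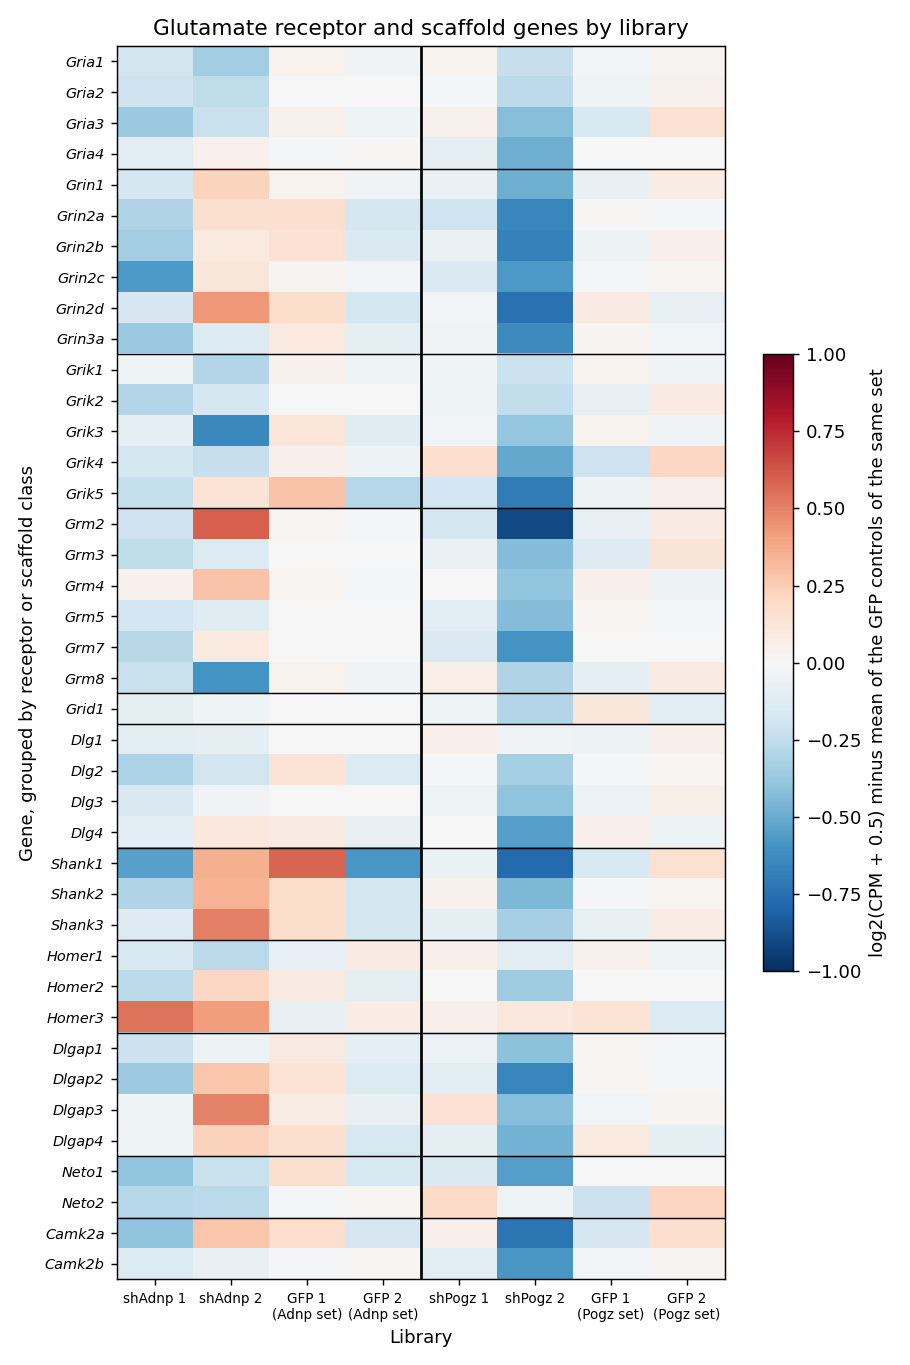
Log2 deviation of each of the 40 genes (rows, grouped by class) from the mean of the GFP libraries of its set, in each of the 8 libraries (columns, log2 of CPM + 0.5, hairpin libraries left of their GFP libraries in each set). The columns of shAdnp replicate 1 and shPogz replicate 2 are almost wholly below 0, with 38 and 39 of 40 genes below, and the column of shAdnp replicate 2 has 20 below.

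Sums of cell type markers also differed between these libraries. The 10 oligodendrocyte markers summed to 4214 and 2045 CPM in shAdnp, against 2607 and 3885 CPM in GFP libraries of the Adnp set, and to 3028 and 4465 CPM in shPogz, against 2627 and 2971 CPM in GFP libraries of the Pogz set. The highest sums in each set were thus in the 2 libraries with the lowest synaptic genes, shAdnp replicate 1 and shPogz replicate 2. The 12 pan-neuronal markers summed to 9621 and 9398 CPM in shAdnp, against 10500 and 10450 CPM in its controls, and to 8719 and 7346 CPM in shPogz, against 8749 and 8966 CPM in its controls. Neither hairpin group overlapped its controls in this neuronal sum. The 17 excitatory neuron markers summed to 5475 and 5686 CPM in shAdnp, against 6175 and 6118 CPM, and to 5237 and 3967 CPM in shPogz, against 4883 and 5584 CPM in GFP libraries.

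Other lists were also uneven. The 12 microglial markers summed to 1570 and 1066 CPM in shAdnp, against 521 and 662 CPM in its controls, with all 12 above 0 in fold change and all 12 not overlapping, beside 20.4% of all genes. In shPogz they summed to 981 and 1526 CPM, against 857 and 899 CPM, with 11 of 12 above 0. The 8 meningeal markers summed to 242 and 233 CPM in shAdnp, against 118 and 128 CPM, and to 173 and 197 CPM in shPogz, against 128 and 168 CPM. The 10 astrocyte markers summed to 4949 and 6053 CPM in shAdnp, against 6457 and 5663 CPM, and to 5464 and 4255 CPM in shPogz, against 5560 and 5736 CPM. Slc1a2 alone took 2759 to 4216 CPM of the sums in the Adnp set. In fold change 7 of the 10 were above 0 in shAdnp (median 0.03), beside 8300 of 17415 genes, and 0 in shPogz (median -0.25), beside 8085. The 10 markers of striatal medium spiny neurons summed to 341 and 323 CPM in shAdnp, against 394 and 375 CPM, and to 378 and 500 CPM in shPogz, against 340 and 346 CPM. The highest of them were Adcy5 (134.1 and 132.7 CPM in shAdnp, against 147.7 and 147.5) and Pde10a (65.5 and 69.6 CPM, against 116 and 84.9). In shPogz Adcy5 had 127.6 and 118.9 CPM, against 114.7 and 128.5 CPM, and Pde10a 90.82 and 145 CPM, against 83.5 and 71.95 CPM. In fold change 5 of the 10 striatal markers were above 0 in shAdnp (median 0.03) and 10 in shPogz (median 0.61). Both shPogz libraries lay above both controls in 8 of the 10, beside 19% of all genes. Both shAdnp libraries did so in 0 of the 10, beside 20.4%, and lay below both controls in 2, beside 21%. The 11 interneuron markers summed to 810 and 984 CPM in shAdnp, against 881 and 931 CPM, and to 864 and 769.7 CPM in shPogz, against 986 and 923 CPM. In shPogz 7 of these 11 lay below both controls, beside 21.3% of all genes. Among the 12 microglial markers in shAdnp, edgeR called 0, DESeq2 9 and limma-voom 0, and 12 had an edgeR unadjusted p under 0.05. Over all 17415 genes in that comparison DESeq2 called 420, and 1161 were higher at an unadjusted p under 0.05. Among the 8 meningeal markers in shAdnp, edgeR called 0, DESeq2 5 and limma-voom 0, and 7 had an unadjusted p under 0.05. Every listed marker passed the filter on low counts. The part of cell makeup in the results below was not tested.

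**Figure D3:**
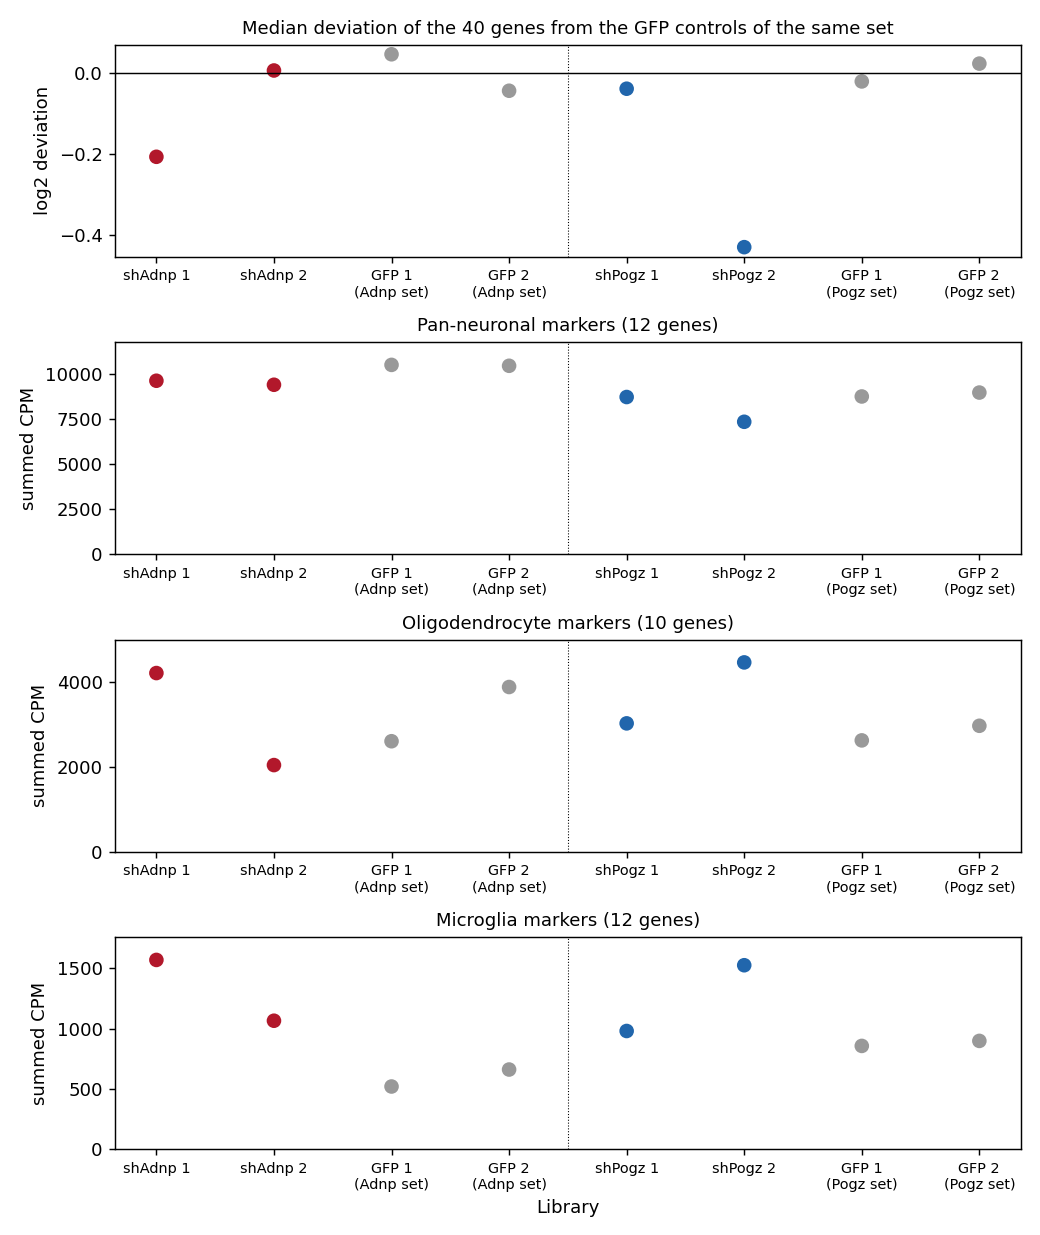
The 8 libraries (x axis, hairpin libraries left of the GFP libraries of their set) by the median log2 deviation of the 40 genes from their own GFP controls (top panel) and by the summed CPM of pan-neuronal, oligodendrocyte and microglial markers (lower panels, y axes from 0). Each point is 1 library. Replicate 2 of shPogz has the lowest median deviation (-0.43) and the highest oligodendrocyte sum (4465 CPM).

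The first comparison asks whether the hairpin labelled Adnp altered these genes. No gene of the 40 passed an adjusted p of 0.05 by edgeR's quasi-likelihood test, and neither did any of the 17415 genes (0% called), of which DESeq2 called 420. At an unadjusted p under 0.05 by edgeR there were 2 of 40, Homer3 above and Grm8 below, beside 1456 of all 17415 genes. DESeq2 and limma-voom called 0 of 40. In sign, 31 of 40 log2 fold changes were below 0, beside 52.3% of all genes tested, with a median of -0.10 (all genes -0.01). This direction turned when libraries were scaled to pan-neuronal genes, with 16 of 40 below 0, a median of 0.04 and a median over all genes of 0.13. Both shAdnp libraries were below both controls in 17 of 40, beside 21% of all genes, and above both in 2 of 40 (Homer3 and Grm4), beside 20.4% of all genes. Without shAdnp replicate 1 the median of the 40 was 0.02 and 20 were below 0, and without GFP replicate 1 of the Adnp set they were -0.05 and 23.

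Both shAdnp libraries lay below both GFP libraries for 3 of the 4 AMPA receptor subunits, beside 21% of all genes. Gria1, a mobile subunit of plastic synapses, had 498 and 444 CPM in shAdnp, against 577 and 552 CPM in GFP libraries. Its log2 fold change was -0.26 (SE 0.12, unadjusted p = 0.0617, adjusted p = 0.629 by edgeR). Gria2 had 1073 and 1041 CPM in shAdnp, against 1245 and 1235 CPM in GFP libraries, a log2 fold change of -0.23 (SE 0.12, adjusted p = 0.693). Gria3 had 364 and 405 CPM in shAdnp, against 487 and 456 CPM, and Gria4 had 177 and 197 CPM, against 190 and 192 CPM. For Gria1, Gria2 and Gria3 the groups did not overlap, and for Gria4 they did.

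Of the 6 NMDA receptor subunits, Grin3a was the one below both controls in both shAdnp libraries. Grin2a had 143 and 197 CPM in shAdnp, against 199 and 157 CPM in GFP libraries, and its log2 fold change was -0.07 (SE 0.20, adjusted p = 0.954 by edgeR). Grin2b, the subunit of early and extrasynaptic receptors, had 416 and 566 CPM in shAdnp, against 585 and 477 CPM, a log2 fold change of -0.11 (SE 0.22, adjusted p = 0.928). Grin1 had 180 and 235 CPM in shAdnp, against 207 and 197 CPM, a log2 fold change of 0.04 (SE 0.17, adjusted p = 0.970). In each of these 3 genes replicate 1 of shAdnp was the lowest library of the set and replicate 2 lay near or above the top of the controls. Grin1 carries the limit that 29.9% of its exon bases overlap Grin1os on the opposite strand and that the strand setting of the counting is not given. Leaving out a library turned the sign of Grin1, Grin2a and Grin2b, over ranges of -0.16 to 0.23, -0.31 to 0.16 and -0.34 to 0.11. The other NMDA subunits, Grin2c, Grin2d and Grin3a, ranged from -0.26 to 0.17.

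Kainate and metabotropic receptors held the members farthest below their controls. Grm8, a presynaptic group III receptor, had 55.0 and 42.3 CPM in shAdnp, against 65.8 and 62.7 CPM in GFP libraries. Its log2 fold change was -0.40 (SE 0.16, unadjusted p = 0.0323, adjusted p = 0.529 by edgeR), and the groups did not overlap. It was -0.59 without shAdnp replicate 1 and -0.21 without shAdnp replicate 2. Grik2, a pore-forming kainate subunit, had 79.1 and 86.2 CPM in shAdnp, against 97.1 and 96.8 CPM, a log2 fold change of -0.23 (SE 0.11, adjusted p = 0.645). All 5 kainate subunits were below 0, from -0.35 to -0.07. Grm5, the group I receptor bound by Homer, had 380 and 400 CPM in shAdnp, against 436 and 434 CPM in GFP libraries, a log2 fold change of -0.16 (SE 0.12, adjusted p = 0.800). Grm4, a group III receptor of low level, had 11.9 and 14.2 CPM in shAdnp, against 11.7 and 11.4 CPM, a log2 fold change of 0.17 (SE 0.17, adjusted p = 0.850).

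Among scaffold genes the 4 MAGUKs were at or below 0 and the Shank, Homer and SAPAP classes each held values on both sides of 0, while under pan-neuronal scaling every gene of these classes but Dlg2 (-0.12) and Homer1 (-0.07) was above 0. Dlg4 had 395 and 461 CPM in shAdnp, against 452 and 405 CPM in GFP libraries, a log2 fold change of 0.00 (SE 0.17, adjusted p = 0.999 by edgeR). Homer1 had 321 and 297 CPM in shAdnp, against 338 and 378 CPM, a log2 fold change of -0.21 (SE 0.11, adjusted p = 0.692) with groups that did not overlap. Shank3, a scaffold whose loss causes Phelan-McDermid syndrome in humans, had 104 and 161 CPM in shAdnp, against 128 and 101 CPM. Its log2 fold change was 0.21 (SE 0.21, adjusted p = 0.852), and -0.13 to 0.51 over the libraries left out in turn. Dlgap3, a SAPAP gene best known in striatal synapses, had 197 and 286 CPM in shAdnp, against 214 and 192 CPM, a log2 fold change of 0.25 (SE 0.22, adjusted p = 0.829). For Shank3 and Dlgap3 the value above 0 comes from shAdnp replicate 2 alone, the highest library of the set. Shank1, the Shank with the widest spread, had 104 and 193 CPM in shAdnp, against 227 and 101 CPM in GFP libraries, so the controls differed as much as the hairpin libraries. Its log2 fold change was -0.14 (SE 0.52, adjusted p = 0.966). Camk2a spread widely, with 1111 and 1780 CPM in shAdnp, against 1652 and 1304 CPM in GFP libraries, a log2 fold change of -0.03 (SE 0.32, adjusted p = 0.988).

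Homer3, the least abundant Homer, was the member farthest above its controls. It had 5.06 and 4.61 CPM in shAdnp, against 3.14 and 3.52 CPM in GFP libraries, with no overlap. Its log2 fold change was 0.54 (SE 0.21, unadjusted p = 0.0310, adjusted p = 0.520 by edgeR) and stayed between 0.47 and 0.62 with each library left out. Of its exon bases, 30.6% overlap Ddx49 on the opposite strand, so reads of both genes may have been counted to it if strand was not used. Neto1, an auxiliary subunit of kainate receptors that also binds NMDA receptors, had 51.5 and 58.0 CPM in shAdnp, against 75.7 and 60.6 CPM, a log2 fold change of -0.32 (SE 0.16, adjusted p = 0.650). With single libraries left out it ranged from -0.47 (GFP replicate 2 omitted) to -0.13 (GFP replicate 1 omitted).

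**Figure D4:**
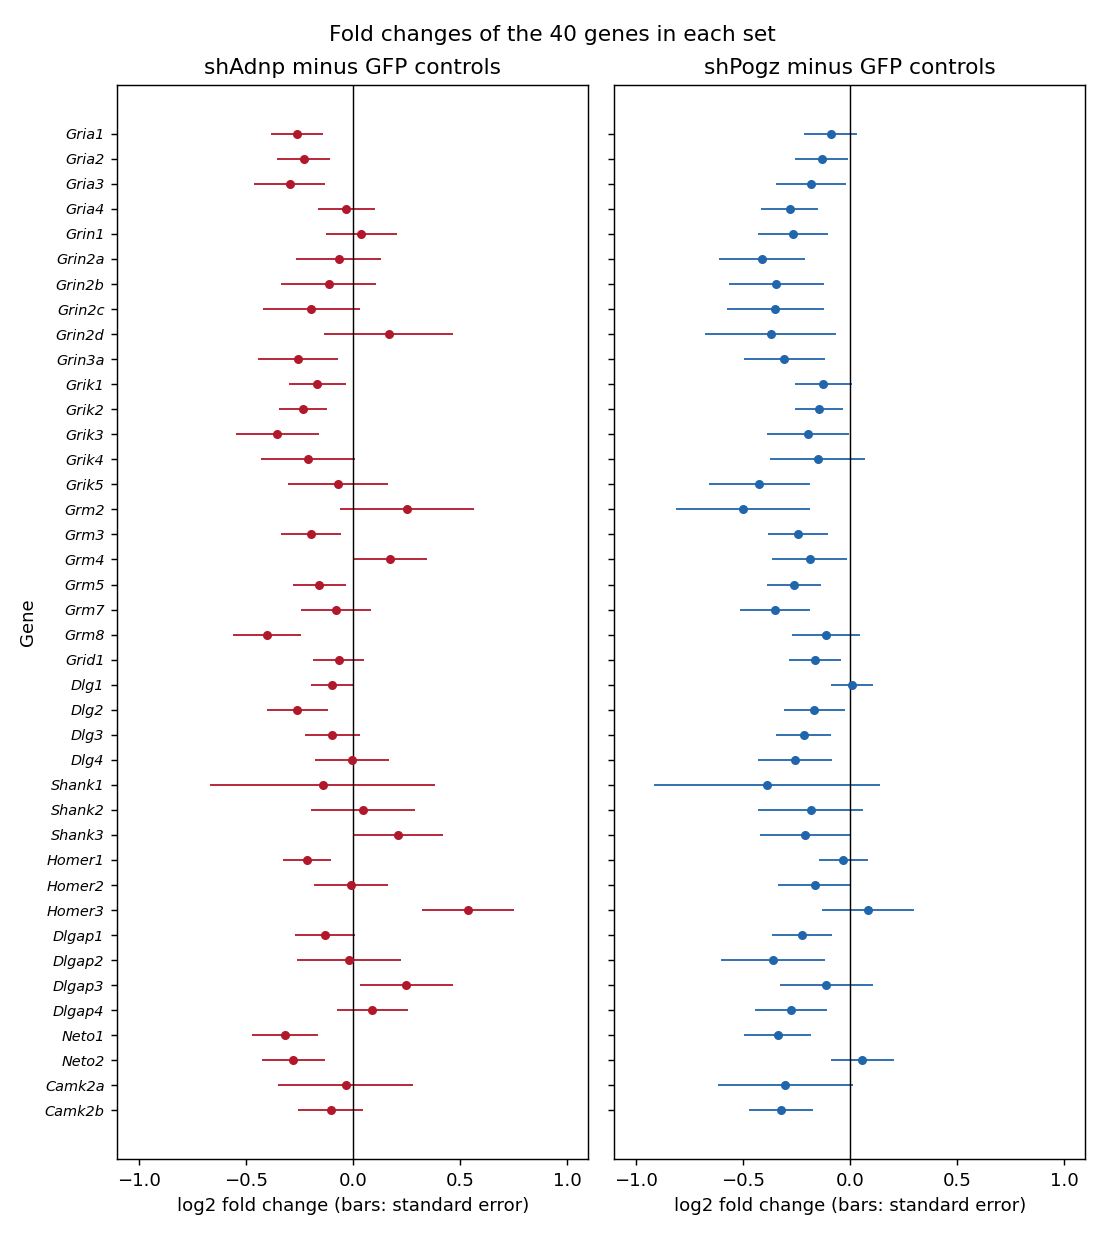
Log2 fold change with its SE (x axis) for each of the 40 genes (rows, grouped by class) in shAdnp over GFP and in shPogz over GFP. In shAdnp 31 of 40 points (16 under pan-neuronal scaling) and in shPogz 37 of 40 points (31 under that scaling) lie below 0, and no gene passed an adjusted p of 0.05.

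In the Pogz set the values below the controls came chiefly from replicate 2. None of the 40 passed by edgeR, nor did any of the 17415 genes (0% called, DESeq2 100 genes). By edgeR 0 of 40 had an unadjusted p under 0.05, beside 1167 of all 17415 genes, and DESeq2 and limma-voom called 0 of 40. In sign, 37 of 40 were below 0, beside 53.6% of all genes, with a median of -0.22 (all genes -0.02), and 31 of 40 under pan-neuronal scaling. Both shPogz libraries were below both controls in 15 of 40, beside 21.3% of all genes, and above both in 0 of 40, beside 19% of all genes. Without shPogz replicate 2 the median was -0.04 and 27 of 40 were below 0, and without shPogz replicate 1 it was -0.40, so the size rests on replicate 2. The header of that library's count column carries the number 3, so whether it is the library its title numbers 2 rests on the deposited record.

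All 6 NMDA receptor subunits were below 0 in shPogz, from -0.41 to -0.27, and 4 of the 6 did not overlap their controls, beside 21.3% of all genes. Grin2a had 152 and 111 CPM in shPogz, against 176 and 173 CPM in GFP libraries, a log2 fold change of -0.41 (SE 0.20, unadjusted p = 0.0722, adjusted p = 0.667 by edgeR). Grin2b had 478 and 313 CPM in shPogz, against 483 and 520 CPM, a log2 fold change of -0.34 (SE 0.22, adjusted p = 0.692). Grin1 had 176 and 132 CPM in shPogz, against 176 and 195 CPM, a log2 fold change of -0.27 (SE 0.17, adjusted p = 0.684). Replicate 1 lay close to the lower control for Grin2b and Grin1, and replicate 2 far below it.

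AMPA receptor subunits were closer to their controls in this set, and under pan-neuronal scaling Gria1 and Gria2 turned to 0.05 and 0.01. Gria1 had 479 and 398 CPM in shPogz, against 457 and 475 CPM in GFP libraries, and its log2 fold change was -0.09 (SE 0.12, adjusted p = 0.842 by edgeR). Gria2 had 1076 and 902 CPM in shPogz, against 1054 and 1113 CPM, a log2 fold change of -0.13 (SE 0.12, adjusted p = 0.760). For both genes the groups overlapped, since shPogz replicate 1 was among or above the controls. Gria4 was the AMPA gene without overlap, at 176 and 134 CPM in shPogz, against 189 and 187 CPM.

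Metabotropic receptors, CaMKII and Neto1 held the smallest p-values of the Pogz set. Grm7, a presynaptic group III receptor, had 113 and 82.9 CPM in shPogz, against 125 and 125 CPM in GFP libraries, a log2 fold change of -0.35 (SE 0.16, unadjusted p = 0.0589, adjusted p = 0.667 by edgeR). Grm5 had 383 and 305 CPM in shPogz, against 418 and 407 CPM, a log2 fold change of -0.26 (SE 0.12, adjusted p = 0.667). Camk2b, the actin-binding CaMKII subunit, had 650 and 467 CPM in shPogz, against 685 and 712 CPM, a log2 fold change of -0.32 (SE 0.15, adjusted p = 0.667). In these 3 genes both shPogz libraries were below both controls. Camk2a had 1387 and 808 CPM in shPogz, against 1193 and 1511 CPM, with overlap and a log2 fold change of -0.30 (SE 0.32, adjusted p = 0.789). Neto1 had 59.8 and 45.0 CPM in shPogz, against 66.3 and 66.1 CPM, a log2 fold change of -0.34 (SE 0.16, unadjusted p = 0.0577, adjusted p = 0.667).

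The scaffolds of the Pogz set were mostly below 0. Dlg4 had 379 and 260 CPM in shPogz, against 396 and 367 CPM in GFP libraries, a log2 fold change of -0.26 (SE 0.17, adjusted p = 0.696 by edgeR). Shank3 had 89.4 and 75.4 CPM in shPogz, against 90.4 and 99.9 CPM, a log2 fold change of -0.21 (SE 0.21, adjusted p = 0.781). For Dlg4 shPogz replicate 1 lay between the controls, and for Shank3 both shPogz libraries lay below them. The 3 genes above 0 were Neto2, an auxiliary kainate receptor subunit, Homer3 and Dlg1 (SAP97), at 0.06, 0.08 and 0.01 (SE 0.15, 0.22 and 0.10). Each of these overlapped its controls, and Homer1, with 300 and 269 CPM in shPogz, against 300 and 282 CPM, stood at -0.03 (SE 0.11, adjusted p = 0.948).

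The difference between the responses was tested as an interaction, shPogz response minus shAdnp response. No gene of the 40 passed by edgeR, nor did any of all genes (0% called, DESeq2 2 genes). By edgeR 0 of 40 had an unadjusted p under 0.05, beside 612 of all 17415 genes, and DESeq2 and limma-voom called 0 of 40. In sign, 28 of 40 were below 0, beside 53.1% of all genes, with a median of -0.16, and all 6 NMDA subunits were below 0. Leaving out each library in turn moved that median between -0.34 and 0.05. The widest difference below 0 was that of Grm2, a presynaptic group II receptor, at -0.75 (SE 0.44, adjusted p = 0.978 by edgeR), and the widest above 0 that of Neto2 at 0.34 (SE 0.21, adjusted p = 0.978). Grm2 had 39.6 and 69.6 CPM in shAdnp, against 46.5 and 45.2 CPM in its GFP libraries, and 43.2 and 26.0 CPM in shPogz, against 46.1 and 51.7 CPM. Among the core genes, differences ran from -0.42 for Shank3 (SE 0.30) to 0.18 for Homer1 (SE 0.16), with Gria1 at 0.17 and Gria2 at 0.10. Leaving out 1 library moved Grm2 between -1.12 (without shPogz replicate 1) and -0.27 (without shAdnp replicate 2). Grin2d stood at -0.54 (SE 0.43). Among the members with the smallest p each way were also Homer3 at -0.45, Dlgap4 and Grm4 at -0.36 each and Grm8 at 0.29. Their unadjusted p by edgeR was 0.159 (Dlgap4) to 0.23 (Grm8). In sign, 29 of 40 genes were below 0 in both sets, beside 32.3% of all genes, 8 were above 0 only in shAdnp, 2 only in shPogz and 1 in both. With 31 of 40 below 0 in shAdnp and 37 of 40 in shPogz, most genes must be below 0 in both. The count of 29 therefore does not show that the responses were alike. Across the 40 genes the 2 responses had a Pearson correlation of -0.053.

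Averaged over both sets with the set as a term, 4 hairpin libraries were compared with 4 GFP libraries. The edgeR test called 0 of 40 and no gene overall (0% called, DESeq2 711 genes), and DESeq2 and limma-voom called 0 of 40. In sign, 37 of 40 were below 0, beside 55.3% of all genes, with a median of -0.18 (all genes -0.02), and 25 of 40 under pan-neuronal scaling. The groups did not overlap in either set for 4 of 40 on the lower side, Grin3a, Grm5, Neto1 and Camk2b, beside 5.31% of all genes, and for 0 of 40 on the higher side, beside 7.12% of all genes. At an unadjusted p under 0.05 there were 7 of 40 on the lower side, beside 3.62% of all genes, and 0 of 40 on the higher side, beside 8.84% of all genes. The count of 7 became 4 under RLE, 2 under upper quartile and 0 under pan-neuronal scaling, and 3 with a filter of 1 CPM in 2 libraries. It was 7 under DESeq2, 8 under limma-voom, 9 with no low-count filter and 5 with the replicate block. With libraries left out it was 0 without GFP replicate 1 of the Adnp set, 1 without GFP replicate 2 of the Pogz set, 2 without shAdnp replicate 1, 1 without shPogz replicate 2 and 15 without shPogz replicate 1. The share of all genes at an unadjusted p under 0.05 was taken in the main setting alone. The counts under other settings or with libraries left out thus have no background beside them. They cannot be read as particular to the 40. Without shAdnp replicate 1 and shPogz replicate 2, a choice made after these data were seen, the median of the 40 was -0.02 and 25 of 40 were below 0.

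Neto1 had the smallest p of the 40, with an average log2 fold change of -0.33 (SE 0.11, unadjusted p = 0.0103, adjusted p = 0.251 by edgeR). It was below its own controls in 4 of 4 hairpin libraries, and its average stayed between -0.40 and -0.25 when each library was left out. Grm5 averaged -0.21 (SE 0.08, unadjusted p = 0.0293, adjusted p = 0.342) and was also below its controls in 4 of 4. Grik2 averaged -0.19 (SE 0.08, unadjusted p = 0.0328, adjusted p = 0.355), although shPogz replicate 1, at 95.4 CPM, lay between its controls. Grm3, a group II receptor that astrocytes also carry, averaged -0.22 (SE 0.09, unadjusted p = 0.0414, adjusted p = 0.376). It had 224 and 242 CPM in shAdnp, against 267 and 266 CPM, and 227 and 176 CPM in shPogz, against 217 and 260 CPM. The other members under 0.05 were Dlg2 (PSD-93) at -0.21, Gria2 at -0.18 and Grin3a at -0.28. Grin3a, a modulatory NMDA subunit that lowers calcium entry, had 51.7 and 60.9 CPM in shAdnp, against 72.0 and 62.7 CPM, and 63.8 and 41.7 CPM in shPogz, against 66.5 and 64.0 CPM. Dlg2 had 427 and 468 CPM in shAdnp, against 587 and 484 CPM, and 461 and 369 CPM in shPogz, against 460 and 472 CPM. Grin3a lay below its controls in all 4 hairpin libraries, while for Grm3 and Dlg2 shPogz replicate 1 lay between them. Of the remaining core genes, Gria1 averaged -0.18, Grin1 -0.11, Grin2a -0.24, Grin2b -0.23, Dlg4 -0.13, Homer1 -0.12, Camk2a -0.17 and Shank3 0.00. The 3 genes not below 0 were Homer3 at 0.32 (SE 0.16, adjusted p = 0.459), Dlgap3 at 0.07 (SE 0.16, adjusted p = 0.893) and Shank3.

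**Figure D5:**
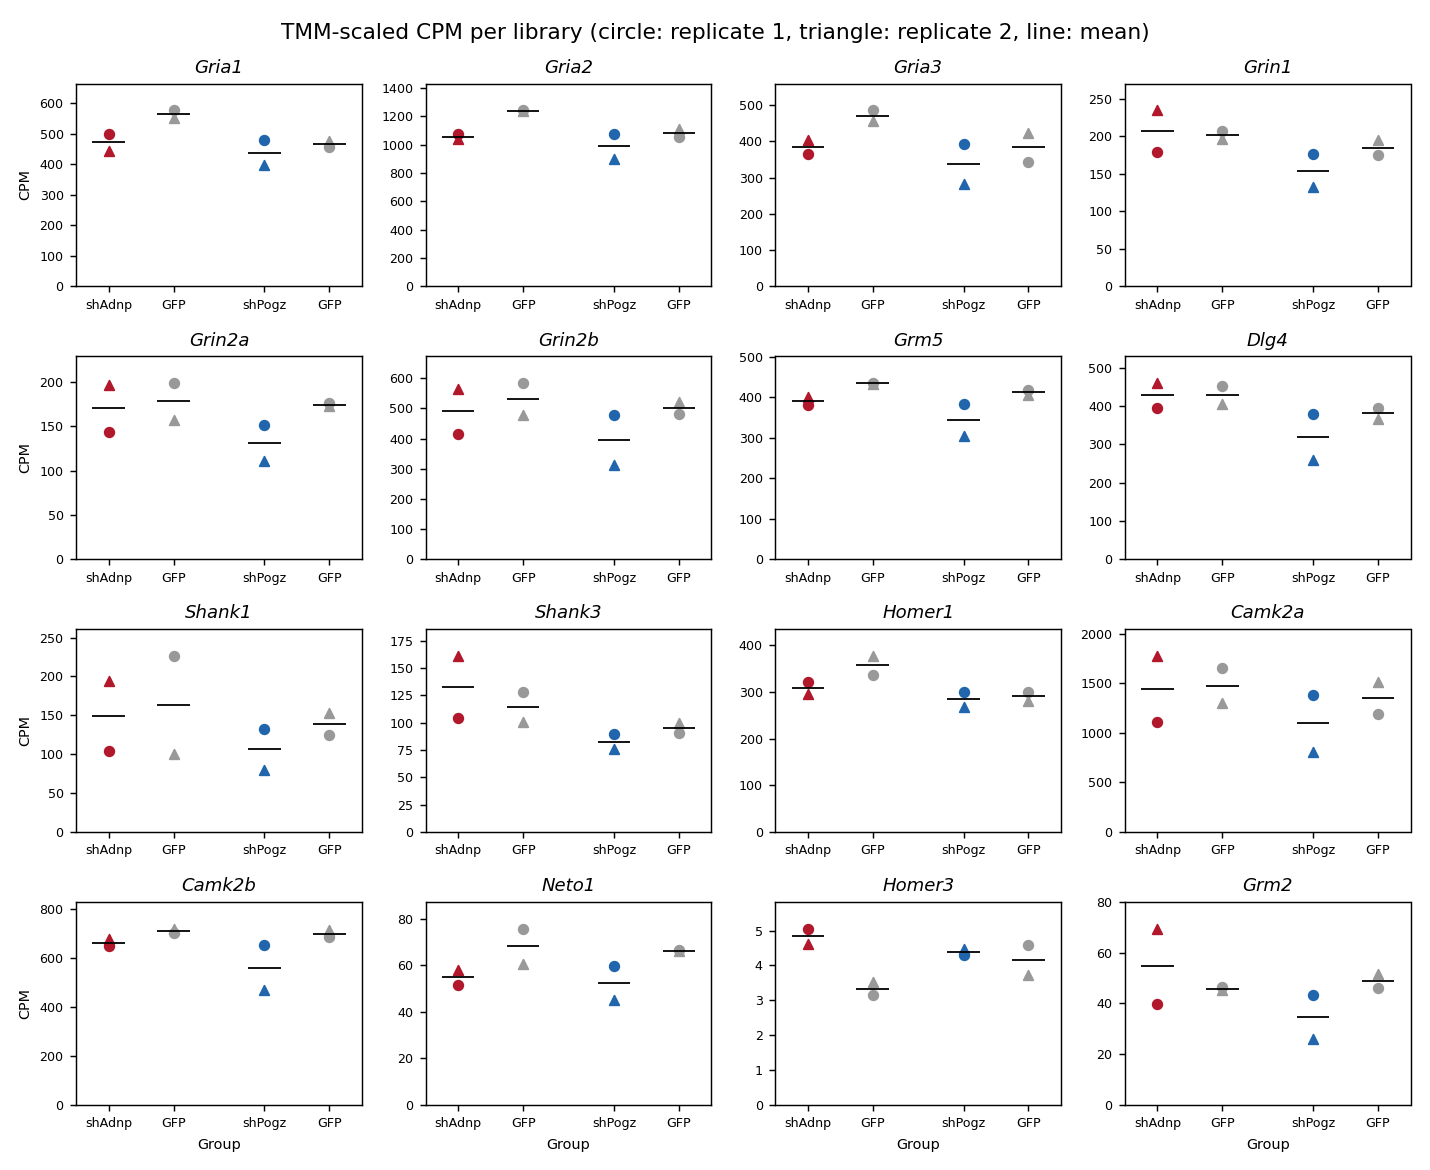
CPM (y axes, each from 0) of selected receptor, scaffold and kinase genes in each library (points) by group (x axis, hairpin groups left of their GFP groups), with group means as short lines. Neto1 and Grm5 have all hairpin points below the GFP points of their own set, while Camk2a overlaps in both sets.

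Promoter sequence is shown for members of that average comparison, chosen from those with an unadjusted p under 0.05 or no overlap in either set, so that genes below their controls together can be read side by side. The RefSeq table for GRCm38.p6 had an entry for 26 of the 40 genes, with 41 start sites. Given here are the 250 bases before a listed start site of Gria2 (chr3:80802836-80803085), Grm3 (chr5:9725353-9725602), Grik2 (chr10:49788755-49789004) and Camk2b (chr11:6065749-6065998), all on the minus strand, written 5′ to 3′ along the gene. Only the Grm3 window lies before the whole annotated gene, whose 5′ end is base 9725352. The 5′ ends of Gria2, Grik2 and Camk2b are bases 80804227, 49790161 and 6066357, so their windows fall inside the gene span, before internal start sites. Capitals mark the GC box GGGCGG on either strand, the core site recognised by Sp1-type factors.
Gria2: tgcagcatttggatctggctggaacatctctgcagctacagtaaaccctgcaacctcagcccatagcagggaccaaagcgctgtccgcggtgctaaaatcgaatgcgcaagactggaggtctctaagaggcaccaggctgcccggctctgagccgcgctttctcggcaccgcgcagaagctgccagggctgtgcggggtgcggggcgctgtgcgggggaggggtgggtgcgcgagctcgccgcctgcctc
Grm3: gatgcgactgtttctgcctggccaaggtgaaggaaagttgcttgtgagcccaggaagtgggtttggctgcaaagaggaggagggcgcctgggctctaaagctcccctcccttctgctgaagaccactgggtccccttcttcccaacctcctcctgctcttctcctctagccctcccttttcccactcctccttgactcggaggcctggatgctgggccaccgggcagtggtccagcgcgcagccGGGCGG
Grik2: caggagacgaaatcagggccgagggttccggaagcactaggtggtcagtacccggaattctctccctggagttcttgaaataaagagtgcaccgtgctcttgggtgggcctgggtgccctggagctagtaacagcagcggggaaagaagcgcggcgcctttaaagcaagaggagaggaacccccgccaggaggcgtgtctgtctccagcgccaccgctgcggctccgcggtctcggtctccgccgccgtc
Camk2b: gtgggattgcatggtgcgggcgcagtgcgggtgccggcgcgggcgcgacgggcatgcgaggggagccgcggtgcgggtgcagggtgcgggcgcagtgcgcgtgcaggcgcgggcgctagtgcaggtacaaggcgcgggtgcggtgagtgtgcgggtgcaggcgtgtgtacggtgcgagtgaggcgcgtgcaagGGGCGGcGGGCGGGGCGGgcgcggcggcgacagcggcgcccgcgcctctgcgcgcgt
Camk2b holds 3 such matches, some of them adjoining, Grm3 holds 1, and Gria2 and Grik2 hold none in this window. Over the 41 member promoters 46.3% held a GC box, beside 32.7% of 32851 promoters of the same length. The cAMP response element TGACGTCA was in 0% of member promoters, beside 1.55% of all, and TATAAA in 7.32%, beside 12.4%, searched on both strands. Median GC content of the window was 62% in members and 52.4% in all promoters.

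The 40 genes are long. Their median genomic span was 167572 bases, beside 21977 bases over 16147 tested genes with a span, and 25 of 40 (62.5%) exceeded 100000 bases, beside 13.7% of all. Spearman's rho between span and log2 fold change across the 40 was -0.40 in shAdnp, 0.15 in shPogz and -0.30 in the average comparison. Over all genes it was -0.11, -0.09 and -0.13. These are descriptions across genes, which share libraries and are not independent replicates.

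Subunit ratios were compared because they do not depend on the scaling of a library. Grin2a over Grin2b, which rises in maturing cortex, had log2 CPM ratios of -1.54 and -1.52 in shAdnp, against -1.55 and -1.60 in GFP libraries, and -1.66 and -1.50 in shPogz, against -1.45 and -1.59. Gria2 over Gria1 had 1.11 and 1.23 in shAdnp, against 1.11 and 1.16 in GFP libraries, and 1.17 and 1.18 in shPogz, against 1.21 and 1.23. In the first ratio both shAdnp libraries lay above both controls, and in the second both shPogz libraries lay below both. The other groups of these ratios overlapped. For 6 ratios tested, which also included Camk2a over Camk2b, Dlg4 over Dlg3, Homer1 over Homer2 and Grik2 over Grik5, the joint two-sided exact permutation p over both sets was 0.722 to 0.944, and 0.944 for each after adjustment over the 6. The mean differences over both sets were -0.02 to 0.06, with opposite signs in the 2 sets for each of the 6 ratios. A joint mean near 0 therefore does not show that a ratio was alike within a set. Grik2 over Grik5 differed by -0.18 in shAdnp and 0.30 in shPogz, and Homer1 over Homer2 by -0.19 and 0.15. For both of these ratios the shPogz libraries lay above both controls (exact permutation p = 0.333), the smallest p possible in a set. For Homer1 over Homer2 the nearest shPogz and GFP libraries had 1.428 and 1.427. The design allows a smallest exact p of 0.333 within a set and 0.0556 over both. Any full separation of 2 libraries from 2 gives 0.333, so such separations are frequent by label exchange alone.

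Further genes of the pathway were taken from 3 lists. Over all genes tested, 52.3% were below 0 in shAdnp and 53.6% in shPogz. These 3 lists were not examined under pan-neuronal scaling or with libraries left out. Of 12 AMPA receptor auxiliary subunits, 9 were below 0 in shAdnp and 11 in shPogz, and 0 passed by edgeR, DESeq2 or limma-voom. Cacng8, a transmembrane AMPA receptor regulatory protein, had the smallest p, with 21.7 and 16.0 CPM in shPogz, against 27.4 and 27.3 CPM in GFP libraries, a log2 fold change of -0.54 (SE 0.16, unadjusted p = 0.00725, adjusted p = 0.667 by edgeR). Shisa9, another AMPA receptor partner, was at -0.31 in shAdnp and -0.28 in shPogz. Of 9 genes of glutamate transport and synthesis, 7 were below 0 in shAdnp and 9 in shPogz, and 0 passed. Slc1a1, the neuronal transporter EAAC1, had 135 and 129 CPM in shAdnp, against 158 and 161 CPM, a log2 fold change of -0.27 (SE 0.11, unadjusted p = 0.0311, adjusted p = 0.520). Of 29 postsynaptic signalling and actin regulators tested, 20 were below 0 in shAdnp and 28 in shPogz, and 0 passed. Grip1, which binds the tails of AMPA subunits, had 30.4 and 27.99 CPM in shAdnp, against 35.7 and 37.0 CPM, a log2 fold change of -0.32 (SE 0.13, adjusted p = 0.523). The gene of that list above 0 in shPogz was Arc, an activity-induced gene, at 0.39 (SE 0.54, adjusted p = 0.849).

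The GFP groups of the 2 sets were compared with each other as a measure of how far these genes differ with no hairpin involved. Between GFP libraries of the Pogz set and of the Adnp set, edgeR called 1 of 17415 genes (0.00574% called) and 0 of the 40. At an unadjusted p under 0.05 by edgeR there were 2 of the 40 (Neto2 and Homer1), beside 1280 of all genes, and DESeq2 and limma-voom called 0 of 40. In sign, 32 of 40 were below 0, beside 48.2% of all genes, with a median of -0.10, but 8 of 40 under pan-neuronal scaling, where the median of all genes was 0.25. The libraries did not overlap in 18 of 40 on the lower side, beside 22.3% of all genes, and in 2 of 40 on the higher side, Grm7 and Homer3, beside 21.2% of all genes. These counts are as large as those of shAdnp against its own controls, 31 below 0 and 17 not overlapping, which share the GFP libraries of the Adnp set. Neto2 had 71.4 and 96.9 CPM in GFP libraries of the Pogz set, against 117 and 120 CPM in those of the Adnp set, a log2 difference of -0.49 (SE 0.15, unadjusted p = 0.00784, adjusted p = 0.672 by edgeR). Homer1 had 300 and 282 CPM, against 338 and 378 CPM, a log2 difference of -0.30 (SE 0.11, unadjusted p = 0.0253, adjusted p = 0.672). All 4 AMPA subunits and all 4 MAGUK genes were lower, without overlap, in the GFP libraries of the Pogz set, from -0.30 to -0.02 and from -0.20 to -0.14, but under pan-neuronal scaling Gria2, Gria4 and all 4 MAGUK genes turned above 0, by 0.04 (Dlg2) to 0.22 (Gria4), and Gria1 and Gria3 stood at -0.03 and -0.06. Among the other core genes Shank3 stood at -0.27, Grin1 at -0.12, Camk2a at -0.13 and Grin2a, Grin2b and Grm5 between -0.08 and -0.03. Above 0 were Homer3 at 0.32, Grin2d at 0.19, Grik1 at 0.07 and Grid1 at 0.04, and Grm8 was at -0.31. The set and any batch it was processed in cannot be told apart.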

How the data were processed

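RNA was measured in 8 bulk prefrontal cortex libraries. Per the labels' protocols, stranded total RNA libraries were made from 1 µg RNA with ribosomal depletion, reads were trimmed with Cutadapt and aligned with TopHat2 to RefSeq mRNAs. The submitters' processing notes name STAR, featureCounts, DESeq2 and mm10 instead, with no versions. Which aligner, strand setting and treatment of multi-mapping reads made the deposited files is not given in the sources used here.

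The deposited values are read counts per gene symbol, not normalized by the authors. From them, 25 symbols turned into dates (0.306% to 0.337% of counts) and 2 blank rows were left out. Genes were filtered with filterByExpr at a minimum count of 10, scaled by TMM and tested with edgeR 4.0.16 in R 4.3.3 by robust quasi-likelihood tests over all 8 libraries (4 residual degrees of freedom, biological coefficient of variation 0.171), with Benjamini-Hochberg adjustment over 17415 genes and a threshold of 0.05. The code was tested on simulated data. The labels call the libraries biological duplicates but list no animals, so p-values measure only the spread between these libraries, which may be technical. Libraries held 27501722 to 69002749 counts. No library was a copy of another: chi-square per degree of freedom was 28 to 274 for pairs within a group and 15 to 394 over all pairs.

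DESeq2 1.42.0 and limma-voom (limma 3.58.1), other scalings (RLE, upper quartile, pan-neuronal genes), other filters, fits on fewer libraries, a replicate block and each library left out were the alternatives. Exon lengths, gene spans and overlaps came from GENCODE on GRCm38, the mm10 assembly, and promoters from RefSeq. Some listed genes are not reported here. The 40 genes, lists and tests were chosen with earlier results of these data known. Full values are given in each comparison for 10 core genes (Gria1, Gria2, Grin1, Grin2a, Grin2b, Grm5, Dlg4, Shank3, Homer1, Camk2a) and for up to 4 members each way with the smallest p. Other members were described by class.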

Additional observations from a re-analysis of the deposited data

How the results depend on the processing

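No alternative and no left-out library called any of the 40 genes. Under RLE and upper quartile scaling, DESeq2, limma-voom, both filters, the replicate block and fits on the libraries compared alone, the named genes kept their sign, apart from 3 genes near 0. These were Dlg4 in shAdnp (-0.002, and up to 0.019), Shank3 in the average (0.002, and down to -0.014) and Homer1 in shPogz (-0.03, and 0.002 with a filter of 1 CPM in 2 libraries). Counts over all genes moved: DESeq2 called 420 genes in shAdnp, 100 in shPogz, 2 for the difference, 711 for the average and 73 between GFP sets, and no filter gave 6 between GFP sets. Scaling to pan-neuronal genes moved the median of all genes to 0.128 in both hairpin comparisons, 0.122 in the average and 0.251 between GFP sets. It left 16 of 40 below 0 in shAdnp and 8 between GFP sets, where the median became 0.141 and 3 genes were called. Relative to the median of all genes, the 40 had medians of -0.088 (shAdnp), -0.212 (shPogz), -0.16 (average) and -0.11 (GFP sets). Signs turned there for Grin2a (0.077), Grin2b (0.03), Camk2a (0.112) in shAdnp; Gria1 (0.05), Gria2 (0.009), Homer1 (0.114) in shPogz; Grin1 (0.026), Dlg4 (0.005), Homer1 (0.02) in the average; and Gria2 (0.048), Grin1 (0.117), Grin2a (0.213), Grin2b (0.159), Grm5 (0.166), Dlg4 (0.075), Camk2a (0.112) in the GFP sets. Dlg4 in shAdnp stood at 0.139 there. The cause was not tested.

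Without shAdnp replicate 1 and shPogz replicate 2, chosen after seeing the data, 13 genes were called in shAdnp, 20 of 40 were below 0 there, and the median in shPogz was -0.034. Signs turned for Grin2a (0.16), Grin2b (0.105), Camk2a (0.281) in shAdnp; Gria1 (0.045), Homer1 (0.056), Camk2a (0.045) in shPogz; Grm5 (0.006) in the difference; and Grin1 (0.088), Grin2b (0.023), Dlg4 (0.059), Camk2a (0.164) in the average.

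With each library left out in turn, genes called ranged from 0 to 8 (shAdnp), 0 to 153 (shPogz), 0 to 4 (the difference), 0 to 556 (the average), 0 to 6 (the GFP sets). The highest counts came without shAdnp replicate 1 (8 and 4), without shPogz replicate 1 (153 and 556) and without GFP replicate 2 of the Pogz set (6). Medians of the 40 ranged from -0.2 to 0.019 (shAdnp), -0.398 to -0.042 (shPogz), -0.344 to 0.049 (the difference), -0.231 to -0.099 (the average), -0.193 to -0.009 (the GFP sets), and members below 0 from 20 to 38 (shAdnp), 27 to 38 (shPogz), 15 to 32 (the difference), 32 to 39 (the average), 21 to 34 (the GFP sets). Signs of some genes turned. In shAdnp, Grin1 ranged from -0.158 to 0.234, Grin2a from -0.307 to 0.161, Grin2b from -0.344 to 0.106, Shank3 from -0.134 to 0.506, Camk2a from -0.404 to 0.281, Dlgap3 from -0.035 to 0.507, Dlg4 from -0.109 to 0.118. In shPogz, Gria1 ranged from -0.192 to 0.038, Homer1 from -0.073 to 0.048, Camk2a from -0.705 to 0.037, Neto2 from -0.124 to 0.334, Homer3 from -0.028 to 0.258, Dlg1 from -0.021 to 0.1. In the difference, Grin2b ranged from -0.52 to 0.044, Grm5 from -0.234 to 0.049, Camk2a from -0.663 to 0.128. In the average, Dlgap3 ranged from -0.064 to 0.208, Shank3 from -0.161 to 0.095. In the GFP sets, Grin2a ranged from -0.192 to 0.169, Grin2b from -0.224 to 0.09, Camk2a from -0.329 to 0.07, Grid1 from -0.076 to 0.133. The mean differences in subunit ratios ranged from -0.043 to 0.036 (Grin2a over Grin2b), -0.034 to 0.027 (Gria2 over Gria1), -0.133 to 0.174 (Camk2a over Camk2b), -0.036 to 0.073 (Dlg4 over Dlg3), -0.166 to 0.126 (Homer1 over Homer2), -0.083 to 0.204 (Grik2 over Grik5). Where a left-out library leaves a group with 1 library, that library is assumed to vary like the other groups.

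Replicate numbers were not used to pair libraries in the main tests. Log2 differences of replicate 1 over replicate 2 in hairpin and GFP groups had Pearson correlations of -0.079 (Adnp set) and 0.111 (Pogz set) over all genes. Over the 40 genes they were -0.534 and -0.317. With 2 libraries per group, these values cannot show whether same-numbered libraries were paired. With the replicate block, 175, 31 and 405 genes were called in shAdnp, shPogz and the average, and 0 of the 40. With 2 libraries a group, a p that misses the threshold does not show that levels were alike.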
